A study of Mus musculus with 15 samples.

Results

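Colon gene expression of mice that lack NEMO in intestinal epithelial cells and carry the RIPK1 S166A mutation on both alleles was compared with that of NEMO FL control mice. The comparison took in 10 of the 15 arrays of the series, chosen by their sample titles: 5 from animals of the genotype NEMO IEC-KO Ripk1 S166A/S166A, called S166A mice here, and 5 from NEMO FL mice. The remaining 5 arrays came from NEMO IEC-KO mice with unmutated RIPK1 and are given as ranges of level, and they enter a fit only where all 3 groups are said to be fitted. Every array held total RNA of the colon of 1 mouse at 11 weeks of age, and the 19527 of 22142 probe sets that could be given 1 gene symbol are counted as genes. In NEMO IEC-KO mice the Villin-Cre transgene deletes the floxed Ikbkg gene, which encodes NEMO, in epithelial cells only, so other cells of the colon kept it. NEMO FL mice carry the floxed gene without that deletion and have unmutated RIPK1. No mice with the RIPK1 mutation and intact NEMO were among the arrays, and the contributions of the Ikbkg deletion and of the Ripk1 mutation to a difference cannot be told apart.

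NEMO is the regulatory subunit of the kinase complex that switches on canonical NF-kB signalling downstream of the TNF receptor, and in the gut epithelium it protects cells from death. RIPK1 is the kinase that drives apoptosis or necroptosis when this protection fails, and serine 166 is a site that it phosphorylates on itself. Interferons switch on large families of target genes. Among these are the immunity-related GTPases (IRGs) and the guanylate-binding proteins, which attack the vacuoles of intracellular pathogens, and the MHC class II genes, which present peptides to helper T cells and which gut epithelial cells can also express. The question was which genes of the S166A colon still stood apart from the control colon.

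The deleted gene was checked first. Ikbkg had log2 signals of 5.24, 5.25, 5.30, 5.43 and 5.23 in S166A mice 94, 95, 33, 27 and 56, against 6.18, 6.55, 6.38, 6.50 and 6.28 in NEMO FL mice 18, 22, 28, 29 and 55. All S166A mice lay below all NEMO FL mice, and Ikbkg fell by 1.09 on the log2 scale (SE 0.11, limma adjusted p = 0.000348). In whole tissue, fewer cells of a type and less RNA per cell cannot be told apart. Mouse 55 is titled as a control, while its genotype entry names NEMO IEC-KO with wild-type Ripk1, and its Ikbkg level of 6.28 lay within the range of the other NEMO FL mice.

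The 10 arrays had medians of 6.30 to 6.36 on the log2 scale, and the interquartile range was 3.06 and 3.01 in S166A mice 94 and 95, against 3.27 to 3.40 in the other 8 mice. The Y-linked genes Uty, Kdm5d and Eif2s3y marked all 5 S166A mice as male, and 1 NEMO FL mouse (mouse 55) as male with the other 4 female. Sex was thus almost the same split as genotype. Their mean level was 7.10 to 8.08 in S166A mice, against 2.89 to 3.30 in the 4 female NEMO FL mice and 8.53 in mouse 55. The 9 measured markers of colon epithelium lay at or above the 69.5th percentile of all probe sets in both groups, and none had an unadjusted p under 0.05. Of 4 neutrophil markers, 1 was higher at that threshold, and their mean ran from 4.40 to 4.83 in S166A mice and from 4.18 to 4.67 in NEMO FL mice.

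Few single genes passed the adjusted threshold, while small differences were more frequent. At an adjusted p under 0.05, 3 genes were higher (0.0154% of those tested) and 8 lower (0.041%) in S166A colon. At an unadjusted p under 0.05 the numbers were 993 higher (5.09%) and 1050 lower (5.38%), 2043 (10.5%) in either direction. That is more than the share of 0.05 that such a threshold passes on average when no gene differs. The values of the groups did not overlap for 139 genes that were higher (0.712%) and 189 that were lower (0.968%), 1.68% of all in either direction. With a fold over 1.5 added to the unadjusted threshold, 117 genes were higher and 73 lower. The median log2 difference over all genes, S166A minus NEMO FL, was 0.00198.

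The 11 genes that passed the adjusted threshold were Tgtp2, Iigp1 and Gbp4, which rose, and Ces1f, Aadac, Far2, Ikbkg, Mptx1, Hao2, Mptx2 and Cntnap1, which fell. None of the 11 overlapped between the groups. Mouse 55, the male control, thus lay outside the range of the 5 male S166A mice in all 11, on the side of the other NEMO FL mice. That position follows from the lack of overlap and is no separate check on sex. With all 3 groups and a sex term in the fit, 4 genes passed: Ces1f, Ikbkg, Iigp1 and Bicra, the last of which is not described further and is named after its result was seen. The other 8 of the 11 genes missed the threshold in that fit. Without S166A mice 94 and 95, 3 genes passed, which were Ces1f, Ikbkg and Iigp1. Leaving out single mice gave 7 genes without mouse 94, 22 without mouse 95, 7 without NEMO FL mouse 22 and 35 without NEMO FL mouse 18.

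**Figure D1:**
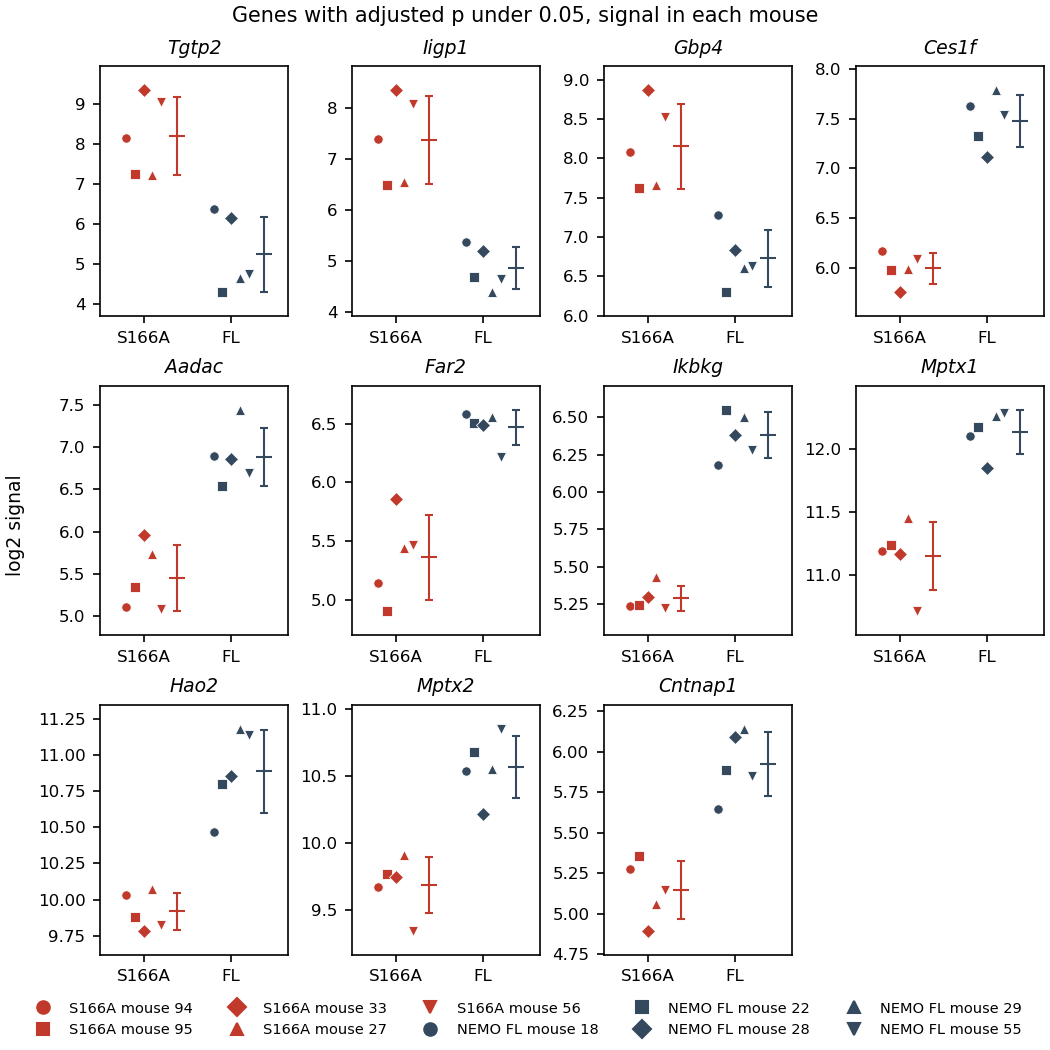
Log2 signal of the 11 genes with an adjusted p under 0.05, one panel per gene, in the 5 S166A mice (left, red) and the 5 NEMO FL mice (FL, right, dark blue), with a symbol for each mouse. Bars are the mean and SD, the vertical axes differ between panels and do not start at 0, and the groups overlap in none of the 11.

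Sequences upstream of GTPase genes that held motif matches are shown, because interferon-responsive promoters carry short elements that can be read by eye. Of the genes shown, Tgtp2 alone passed the adjusted threshold. The RefSeq promoter table of the GRCm38.p6 build was searched on both strands over the 250 bases before the start of each gene for an interferon-stimulated response element (GAAANNGAAA), for a gamma-activated site (TTCNNNGAA), and for the Y box of MHC class II promoters (CTGATTGG), bound by NF-Y. Of 32851 promoters, 2.98% held the first, 7.02% the second and 3.83% the third. The 120 bases before the start of 4 IRG genes and of Gbp7 read as follows on the strand of the gene, with matches to the first and second motif in capitals.
Tgtp2: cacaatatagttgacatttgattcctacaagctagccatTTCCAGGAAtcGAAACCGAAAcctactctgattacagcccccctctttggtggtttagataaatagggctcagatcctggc
Igtp: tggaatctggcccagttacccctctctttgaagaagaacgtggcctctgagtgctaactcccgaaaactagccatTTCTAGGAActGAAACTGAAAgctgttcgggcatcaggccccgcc
Irgm2: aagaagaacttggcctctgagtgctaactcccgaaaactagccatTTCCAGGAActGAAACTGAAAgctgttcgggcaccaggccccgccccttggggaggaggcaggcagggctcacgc
Irgm1: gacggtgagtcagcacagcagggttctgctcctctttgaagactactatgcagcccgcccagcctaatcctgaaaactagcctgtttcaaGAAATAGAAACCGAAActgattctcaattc
Gbp7: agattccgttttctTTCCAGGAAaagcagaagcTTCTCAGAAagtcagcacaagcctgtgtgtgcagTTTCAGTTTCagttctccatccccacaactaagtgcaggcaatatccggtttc

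These stretches lie at chr11:49064213-49064332 (minus strand) for Tgtp2, chr11:58199436-58199555 (plus) for Igtp, chr11:58214857-58214976 (plus) for Irgm2, chr11:48871421-48871540 (minus) for Irgm1 and chr3:142530216-142530335 (plus) for Gbp7. In Tgtp2, Igtp and Irgm2 the gamma-activated site ended 2 bases before the response element, which began 70, 34 and 64 bases before the start. That joint arrangement, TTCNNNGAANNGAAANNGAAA, was looked up after it had been seen here, and 5 of the 32851 promoters held it: those of Tgtp1, Tgtp2, Igtp, Irgm2 and Gm12185. Irgm1 held a pair of overlapping response elements, and in Gbp7 the element lay on the opposite strand. Of 7 measured genes of the IRG list with a promoter looked up, 4 held a response element and 3 a gamma-activated site. Gm5431, 9930111J21Rik1 and 9930111J21Rik2 held neither. All 3 such guanylate-binding protein genes (Gbp2, Gbp3 and Gbp7) held a response element, and Gbp7 alone of them held a gamma-activated site. A match is a description of the letters and not evidence of binding.

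The IRG family held 2 of the 3 genes that rose. Tgtp2, a GTPase first described in T cells, had log2 signals of 8.15, 7.25, 9.34, 7.22 and 9.04 in S166A mice (in the order 94, 95, 33, 27 and 56, kept below), against 6.36, 4.30, 6.14, 4.63 and 4.75 in NEMO FL mice (18, 22, 28, 29 and 55). Every S166A mouse lay above every NEMO FL mouse, and Tgtp2 rose 7.80-fold (log2 difference 2.96, SE 0.44, limma adjusted p = 0.0148). Its probe set may also catch transcripts of the near-identical Tgtp1, for which no probe set carries the symbol. A probe set without a symbol was called as well, with a log2 difference of 2.90 (adjusted p = 0.00778).

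Iigp1, which coats and ruptures parasite vacuoles, had 7.40, 6.49, 8.35, 6.56 and 8.09 in S166A mice, against 5.37, 4.69, 5.21, 4.40 and 4.65 in NEMO FL mice. The lowest S166A mouse was more than 1 log2 unit above the highest NEMO FL mouse, and Iigp1 rose 5.70-fold (log2 difference 2.51, SE 0.32, limma adjusted p = 0.00514). Gm12250, a related interferon-inducible GTPase outside the list of 10, had 7.98, 7.30, 9.13, 7.14 and 8.65 in S166A mice, against 7.08, 5.58, 6.29, 4.73 and 5.22 in NEMO FL mice. The groups did not overlap, and the log2 difference was 2.26 (SE 0.41), short of the threshold at an adjusted p of 0.0635.

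The regulatory IRG proteins of the IRGM class, which keep the effector GTPases off the cell's own membranes, showed a graded pattern. Igtp had 7.46, 6.65, 8.36, 6.62 and 8.03 in S166A mice, against 6.09, 5.27, 6.41, 5.07 and 5.21 in NEMO FL mice (log2 difference 1.82, 95% interval 1.12 to 2.52, limma adjusted p = 0.0634). Irgm2 had 9.08, 8.16, 9.69, 8.30 and 9.38 in S166A mice, against 7.90, 7.12, 7.90, 6.95 and 6.94 in NEMO FL mice (1.56, 0.96 to 2.16, adjusted p = 0.063). Irgm1 differed least of the IRGM class, with 8.96 ± 0.56 in S166A mice and 7.96 ± 0.28 in NEMO FL mice (SD, n = 5 each). The groups overlapped in none of these genes, and Igtp and Irgm2 passed the adjusted threshold when all 3 groups were fitted together (0.0187 for each).

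All 10 measured genes of the IRG list were higher at an unadjusted p under 0.05, against 5.09% of all genes, with a median log2 difference of 1.28. In 5 of the 10 the groups did not overlap, against 0.712% of all genes. The groups overlapped in the other 5, which were the predicted genes Gm4951 (log2 difference 1.5955), Gm5431 (1.00) and F830016B08Rik (0.66) and the similar pair 9930111J21Rik1 (0.43) and 9930111J21Rik2 (0.42), whose probe sets may share transcripts. Gm4841, a predicted gene outside the list, averaged 6.48 ± 1.14 in S166A mice and 4.67 ± 0.15 in NEMO FL mice, did not overlap, and had an adjusted p of 0.126.

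The guanylate-binding proteins followed. Gbp4 had 8.08, 7.62, 8.86, 7.66 and 8.53 in S166A mice, against 7.29, 6.30, 6.84, 6.61 and 6.63 in NEMO FL mice. All S166A mice were higher, and Gbp4 rose 2.67-fold (log2 difference 1.42, SE 0.23, limma adjusted p = 0.0276). The other 5 measured members were Gbp2 (1.31), Gbp7 (0.81), Gbp3 (0.77), Gbp8 (0.66) and Gbp9 (0.64). Each was higher at an unadjusted p under 0.05 (5.09% of all genes) and overlapped between the groups. Gbp2 varied most, from 7.86 to 10.48 in S166A mice and from 7.11 to 8.29 in NEMO FL mice.

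MHC class II genes were higher as well, with no member past the adjusted threshold. Of 10 measured members, 9 were higher at an unadjusted p under 0.05 (5.09% of all genes), none was lower, and the median log2 difference was 1.45. H2-Aa, the alpha chain of the I-A molecule, had 11.57, 10.33, 11.64, 11.24 and 11.03 in S166A mice, against 10.89, 9.10, 9.33, 8.55 and 8.71 in NEMO FL mice. Its log2 difference was 1.84 (95% interval 1.09 to 2.60, limma adjusted p = 0.0803). H2-DMb1, a chain of the peptide-loading molecule H2-DM, had 11.22, 10.11, 11.68, 10.76 and 10.75 in S166A mice, against 10.67, 8.27, 8.85, 7.51 and 7.85 in NEMO FL mice (2.27, 1.32 to 3.22, adjusted p = 0.0886). In both genes the overlap was that of 1 mouse on each side, NEMO FL mouse 18 being above S166A mouse 95.

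Ciita, the coactivator that switches on MHC class II genes, had 7.59, 7.16, 8.61, 7.62 and 7.23 in S166A mice, against 7.07, 5.84, 6.52, 5.40 and 5.74 in NEMO FL mice, and did not overlap (log2 difference 1.53, SE 0.30, limma adjusted p = 0.086). The chains H2-DMa (1.89), H2-Ab1 (1.62), H2-Eb1 (1.37) and H2-DMb2 (1.20) differed by more than 1 log2 unit. H2-Oa (0.55) and H2-Ob (0.48), which form the modulator H2-O of B cells, and H2-Eb2 (0.39) lay at the low end. Without NEMO FL mouse 18, the control with the highest levels of 7 of the 10 genes, 7 members passed the adjusted threshold: H2-Aa (log2 difference 2.24, adjusted p = 0.000616), H2-DMb1 (2.78, 0.000616), H2-Ab1 (1.99, 0.00184), H2-DMa (2.29, 0.0062), Ciita (1.77, 0.00944), H2-Eb1 (1.63, 0.0221) and H2-DMb2 (1.40, 0.0393). Leaving out a high control widens such differences by construction, so these calls are no further support. Of the fits without 1 other mouse, only that without S166A mouse 95 added a class II call, for H2-Aa (limma adjusted p = 0.0425). With all 3 groups in 1 fit and no sex term, H2-Aa and H2-DMb1 (0.029 for each) and H2-Ab1 and Ciita (0.0415 for each) passed. With a sex term H2-Aa had an adjusted p of 0.111 and a log2 difference of 1.90.

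The Y box stood 51 bases before the start of H2-Aa (chr17:34287824-34287943, minus strand) and 62 bases before that of H2-Eb1 (chr17:34305747-34305866, plus strand), shown in capitals in the 120 bases before each start as examples of the element.
H2-Aa: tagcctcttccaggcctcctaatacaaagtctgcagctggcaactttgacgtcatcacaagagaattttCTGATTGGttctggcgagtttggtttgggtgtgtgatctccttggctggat
H2-Eb1: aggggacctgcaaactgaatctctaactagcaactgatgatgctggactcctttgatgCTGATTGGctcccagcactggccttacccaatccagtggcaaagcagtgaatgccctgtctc
Of 8 measured class II genes with a promoter looked up, 4 held the Y box (H2-Aa, H2-Eb1, H2-Eb2 and H2-Oa), against 3.83% of all promoters. H2-Aa and H2-Eb1 had the larger differences among these 4. H2-DMb1, H2-DMa and H2-DMb2, without a match, differed more than H2-Eb2 and H2-Oa. H2-Ob, also without a match, had a small difference. None of the 8 held the interferon-stimulated response element of the GTPase genes.

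**Figure D2:**
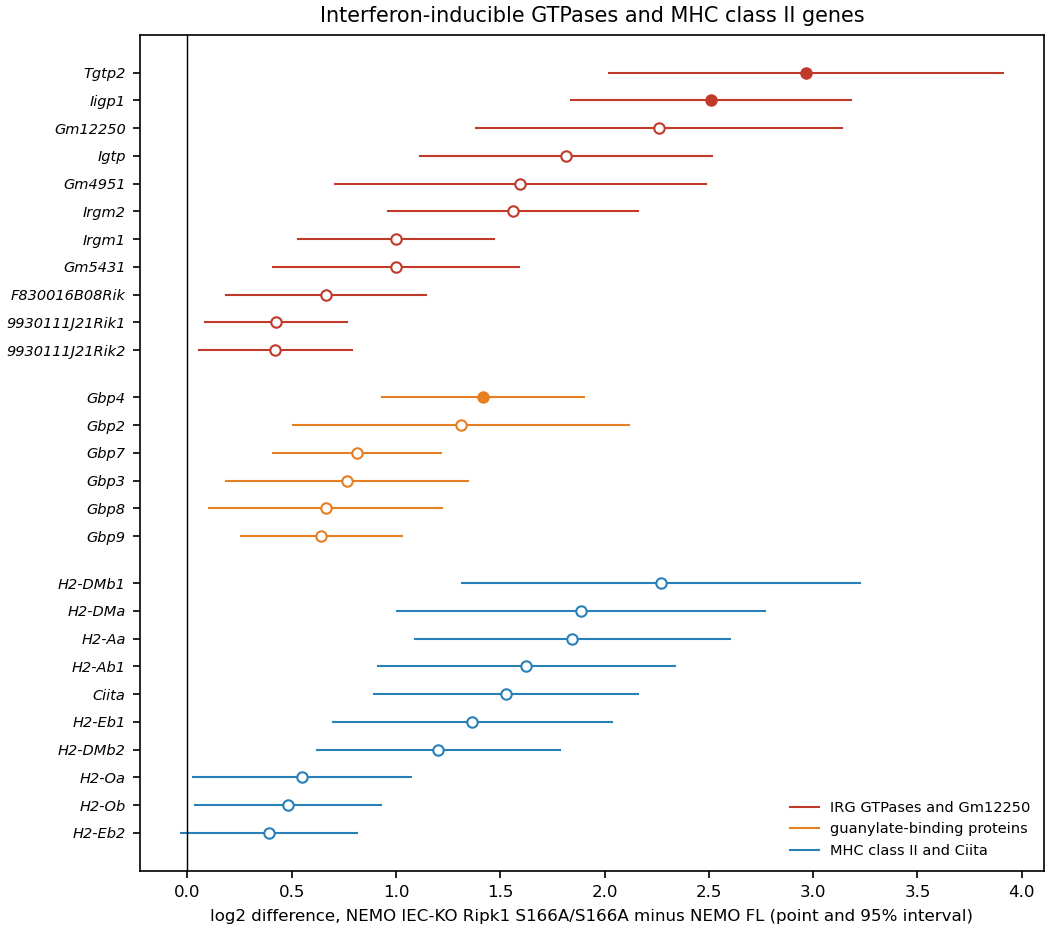
Log2 difference of each measured gene of the IRG list, Gm12250, and each guanylate-binding protein gene and MHC class II gene, S166A minus NEMO FL, with its 95% interval from limma (n = 5 mice each). Filled points passed an adjusted p of 0.05 (Tgtp2, Iigp1 and Gbp4), and every interval except that of H2-Eb2 lies above 0.

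Members of the interferon pathway itself differed less. Of 13 measured genes of interferon gamma signalling, 5 were higher at an unadjusted p under 0.05 and none was lower (5.09% and 5.38% of all genes). The median log2 difference was 0.09. Irf9, a transcription factor of the interferon response, averaged 7.60 ± 0.31 in S166A mice and 7.00 ± 0.22 in NEMO FL mice (log2 difference 0.60). Irf1, a transcription factor induced by interferon gamma, had 10.30, 9.79, 10.37, 9.76 and 10.09 in S166A mice, against 9.72, 9.59, 9.37, 9.35 and 9.57 in NEMO FL mice. Irf1 did not overlap, with a log2 difference of 0.54 and a limma adjusted p of 0.264.

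The chemokines that attract CXCR3-bearing lymphocytes and their receptor made a list of 4 genes. Of these, 3 were higher without overlap between the groups (0.712% of all genes). Cxcl10 had 5.81, 5.49, 5.89, 5.53 and 5.73 in S166A mice, against 5.16, 5.04, 5.22, 5.00 and 4.71 in NEMO FL mice (log2 difference 0.66, SE 0.13, limma adjusted p = 0.0713). Cxcl9 had 6.35, 5.55, 7.72, 6.25 and 5.74 in S166A mice, against 5.47, 5.20, 5.44, 4.99 and 5.04 in NEMO FL mice (1.10, SE 0.30, adjusted p = 0.287). Neither gene overlapped between the groups, nor did Cxcr3, the receptor (log2 difference 0.44). The third ligand, Cxcl11, had a log2 difference of 0.20 (95% interval -0.14 to 0.54), which turned to -0.0522 with a sex term. The log2 levels of Cxcl9 and Cxcl10 ran from 9.33 to 10.70 and from 6.98 to 9.01 in NEMO IEC-KO mice, above every S166A mouse.

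Class I antigen presentation held 13 of 22 genes that were higher at an unadjusted p under 0.05 and none that was lower (5.09% and 5.38% of all genes). The median log2 difference was 0.41. The peptide transporter Tap1 (1.37), the immunoproteasome subunits Psmb8 (1.18) and Psmb9 (1.12) and the class I gene H2-Q4 (1.01) led the list. H2-Q4 did not overlap, at 9.08, 8.64, 9.64, 8.59 and 8.66 in S166A mice, against 8.50, 7.80, 7.94, 7.62 and 7.70 in NEMO FL mice (limma adjusted p = 0.098). Without NEMO FL mouse 18, the highest control in 18 of the 22 genes, Tap1 and H2-Q4 passed (adjusted p = 0.0206 for each). Leaving out a high control widens such differences by construction. Neither gene passed when any other single mouse was left out. With all 3 groups in 1 fit both passed (limma adjusted p = 0.0494 for Tap1 and 0.0428 for H2-Q4).

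Of 31 antiviral interferon-stimulated genes, 14 were higher and 1 lower at an unadjusted p under 0.05 (5.09% and 5.38% of all genes), with a median log2 difference of 0.33, and none was free of overlap. Oasl2 (1.20), Zbp1 (1.06), Rtp4 (0.85) and Ifit1 (0.82) had the largest differences. Zbp1, a sensor of Z-form nucleic acids that can engage RIPK3, averaged 7.22 ± 0.69 in S166A mice and 6.16 ± 0.58 in NEMO FL mice.

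The S166A mice differed among themselves in these families, and mostly in the same order. Averaged over the 10 IRG genes and set against the NEMO FL mean, mice 33, 56, 94, 27 and 95 stood at 2.23, 1.82, 1.34, 0.97 and 0.62 log2 units, against 0.50, 0.39, -0.12, -0.34 and -0.43 in NEMO FL mice 18, 28, 55, 22 and 29. Mouse 33 had the highest level of 9 of the 10 IRG genes and of all 6 guanylate-binding protein genes, and mouse 95 the lowest of 8 and of all 6. The IRG averages did not overlap between the groups. For the guanylate-binding proteins, S166A mouse 95 (0.23) lay below NEMO FL mice 18 and 28 (0.47 and 0.31).

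For MHC class II, the averages were 1.58, 0.62, 1.88, 1.497 and 1.00 in S166A mice, against 1.02, -0.16, 0.22, -0.75 and -0.34 in NEMO FL mice. Mouse 27, low in GTPase genes, was among the high mice here. The SD within the S166A group was larger than that within the NEMO FL group for all 10 IRG genes (median SD 0.671 and 0.438), and for 3 of the 10 MHC class II genes (0.541 and 0.654). In comparison, 11667 of 19527 genes had the larger SD in S166A mice. Mouse 55, the male control, lay below every S166A mouse in 7 of 10 IRG genes, 5 of 6 guanylate-binding protein genes and 7 of 10 MHC class II genes. The share over all genes was not counted. Mouse 55 is among the controls compared, so these counts are no separate check on sex.

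**Figure D3:**
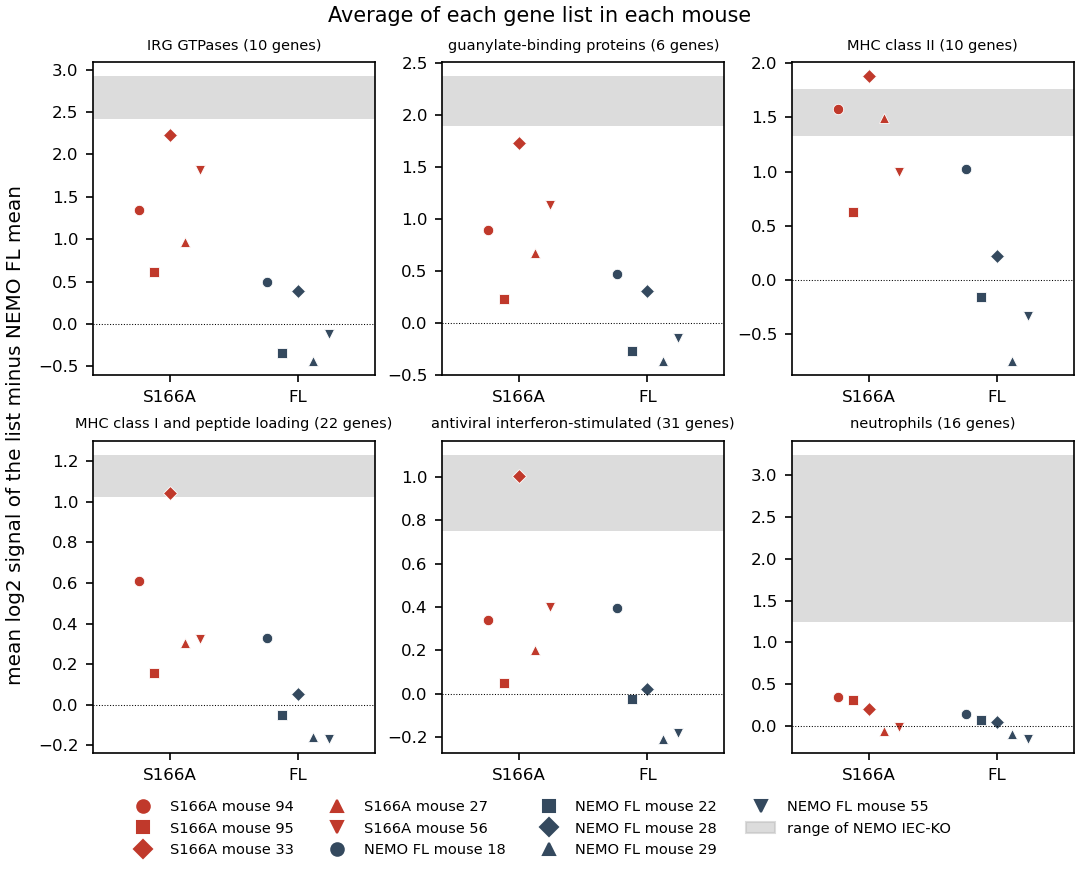
Average log2 signal of 6 gene lists in each mouse, minus the NEMO FL mean, for S166A mice (left, red) and NEMO FL mice (FL, right, dark blue). Grey bands span the 5 NEMO IEC-KO mice, which stood at 2.41 to 2.92 for the IRG genes, 1.33 to 1.77 for MHC class II and 1.24 to 3.24 for the neutrophil list, and the vertical axes differ between panels.

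The families were also set beside their levels in NEMO IEC-KO mice. There the IRG average was 2.41 to 2.92, above all S166A mice, and the MHC class II average was 1.33 to 1.77, a range that held S166A mice 94 and 27, with mouse 33 above it and mice 95 and 56 below. H2-Aa ran from 10.33 to 11.64 in S166A mice and from 10.83 to 11.50 in NEMO IEC-KO mice. Tgtp2, at 9.98 to 10.36 in NEMO IEC-KO mice, was above the highest S166A mouse (9.34). These levels are set side by side and were not tested.

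Of 28 measured epithelial antimicrobial and alarm genes, Mptx1 and Mptx2 passed the adjusted threshold. At an unadjusted p under 0.05, 6 were higher and 5 lower (5.09% and 5.38% of all genes), 17 of the 28 differences were below 0, and the median was -0.07. The groups did not overlap in 1 gene that was higher and 4 that were lower (0.712% and 0.968% of all genes). Some single epithelial genes varied widely between mice. Clca4b, a chloride channel regulator family member, had 10.40, 8.33, 11.92, 7.89 and 11.06 in S166A mice, against 8.76, 7.69, 7.06, 6.84 and 7.49 in NEMO FL mice. Mice 33, 56 and 94 stood above all controls, and mice 95 and 27 below NEMO FL mouse 18 (log2 difference 2.35, SE 0.61, limma adjusted p = 0.27). Ido1, which degrades tryptophan, had 8.25, 5.65, 9.62, 7.10 and 7.11 in S166A mice, against 6.97, 5.28, 5.74, 4.92 and 4.20 in NEMO FL mice (2.12, SE 0.58, adjusted p = 0.303). Ubd, a ubiquitin-like modifier induced by interferon gamma, had a log2 difference of 0.92.

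Nox1, the NADPH oxidase of the colon epithelium, was lower in most of the S166A mice. It had 6.82, 5.26, 7.92, 6.51 and 7.32 in S166A mice, against 8.01, 7.87, 7.53, 7.86 and 7.74 in NEMO FL mice. All S166A mice except mouse 33 lay below the NEMO FL range, with a log2 difference of -1.04 (limma adjusted p = 0.382) that became -0.66 without mouse 95. The absorptive colonocyte list (37 measured) held 2 genes above and 3 below at an unadjusted p under 0.05 (5.09% and 5.38% of all genes). In this list Slc20a1, a phosphate transporter, was at -0.76 (adjusted p = 0.189). Of 14 goblet cell genes, none was higher and 2 were lower, and Clca1, which processes mucus, did not overlap (11.95 ± 0.16 in S166A mice and 12.39 ± 0.08 in NEMO FL mice). Among 14 enteroendocrine genes 1 was higher and 3 lower, and Cpe (-0.78), a prohormone processing enzyme, and the hormone gene Insl5 (-0.73) had the largest differences.

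The strongest call of all was an esterase. Ces1f, a carboxylesterase that hydrolyses esters and lipids, had 6.17, 5.98, 5.76, 5.99 and 6.09 in S166A mice, against 7.63, 7.32, 7.11, 7.78 and 7.54 in NEMO FL mice. The groups were separated by close to 1 log2 unit, and Ces1f fell by 1.48 on the log2 scale (SE 0.14, limma adjusted p = 0.000213). In NEMO IEC-KO mice it ran from 5.17 to 6.37, a range that held all 5 S166A mice. Aadac, an arylacetamide deacetylase of the endoplasmic reticulum, had 5.12, 5.34, 5.97, 5.74 and 5.09 in S166A mice, against 6.90, 6.54, 6.86, 7.44 and 6.69 in NEMO FL mice, and fell by 1.43 (SE 0.19, adjusted p = 0.00705).

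The fall was not shared across the family. Of 17 measured carboxylesterase genes and Aadac together, 5 lay lower and 3 lay higher at the unadjusted threshold (5.38% and 5.09% of all genes), with a median log2 difference of -0.08. Ces2b was lower without overlap, at 6.05 ± 0.35 in S166A mice and 6.76 ± 0.22 in NEMO FL mice, and Ces1g had a log2 difference of -0.47. Ces2f (0.51) and Ces3a (0.47) lay on the other side. These genes have close paralogues, and a probe set may catch more than 1 of them.

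Far2 and Hao2, enzymes of peroxisomal lipid metabolism, both fell. Far2, which makes fatty alcohols for waxes and ether lipids, had 5.14, 4.90, 5.86, 5.44 and 5.47 in S166A mice, against 6.59, 6.51, 6.49, 6.55 and 6.21 in NEMO FL mice. It fell by 1.11 on the log2 scale (SE 0.16, limma adjusted p = 0.00874), with no overlap. Hao2, a peroxisomal oxidase of long-chain hydroxy acids, had 10.03, 9.88, 9.79, 10.08 and 9.83 in S166A mice, against 10.47, 10.80, 10.85, 11.18 and 11.13 in NEMO FL mice. It fell by 0.97 (SE 0.14, adjusted p = 0.00874), while NEMO IEC-KO mice ran from 6.84 to 8.17.

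Of 32 measured genes of fatty acid and peroxisomal oxidation, 6 were lower at the unadjusted threshold (5.38% of all genes), with none on the other side, among them Far1 (-0.46) and Phyh (-0.30), and the list median was -0.07. The steroid dehydrogenases Hsd3b2 (-0.55) and Hsd3b3 (-0.47) were lower at that threshold, as were 3 of 23 genes of steroid metabolism in all. Among 35 genes of oxidative phosphorylation 5 were lower and none higher (5.38% and 5.09% of all genes), with Ndufa1 at -0.37 and Cox7a1 at -0.36. The average of this list was -0.08, -0.26, 0.12, -0.16 and -0.11 in S166A mice, against -0.08 to 0.10 in NEMO FL mice. Mouse 95 was the lowest S166A mouse in 18 of the 35 genes and mouse 33 the highest in 25. The list median of -0.08 became -0.15 without mouse 33, -0.05 without mouse 95 and -0.28 with a sex term. Lists of 31 cytochrome P450 and 31 conjugation enzyme genes held 1 and 2 that were lower, and none that was higher.

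Mptx1 and Mptx2, mucosal pentraxins made by the gut epithelium, fell together. Mptx1 had 11.19, 11.24, 11.17, 11.45 and 10.71 in S166A mice, against 12.10, 12.17, 11.85, 12.26 and 12.28 in NEMO FL mice (log2 difference -0.98, SE 0.14, limma adjusted p = 0.00874). Mptx2 had 9.68, 9.77, 9.75, 9.91 and 9.35 in S166A mice, against 10.54, 10.68, 10.22, 10.56 and 10.85 in NEMO FL mice (-0.88, SE 0.14, adjusted p = 0.0206). Mouse 56 was lowest in both genes, and the pair may share probes. In NEMO IEC-KO mice the levels ran from 7.65 to 10.20 for Mptx1 and from 6.27 to 8.81 for Mptx2, below every S166A mouse. Both calls were lost with all 3 groups in 1 fit, already without a sex term. With a sex term the differences were -0.75 and -0.65 (adjusted p = 0.436 and 0.486).

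**Figure D4:**
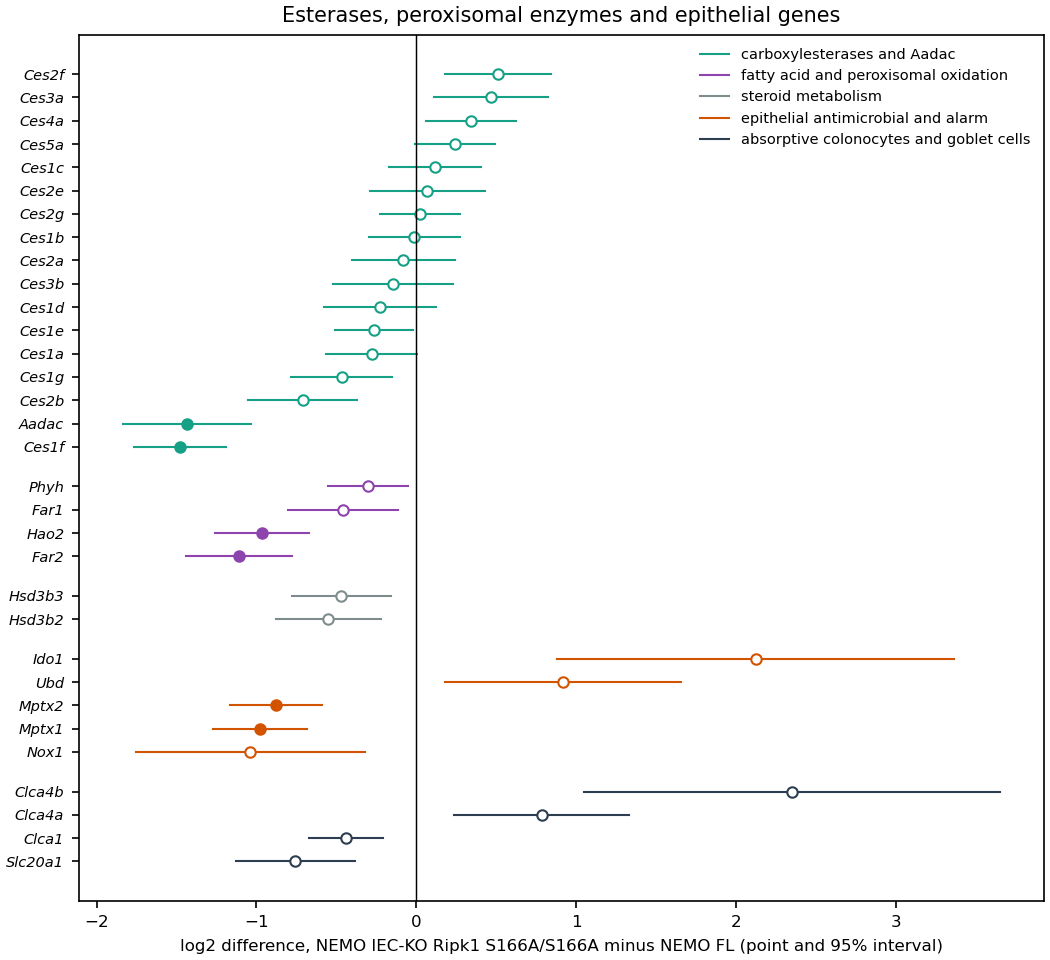
Log2 difference of esterase, lipid, steroid, antimicrobial and epithelial genes, S166A minus NEMO FL, with its 95% interval from limma (n = 5 mice each). Filled points passed an adjusted p of 0.05: Ces1f, Aadac, Far2, Hao2, Mptx1 and Mptx2, all on the lower side.

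Cntnap1, a junction protein of myelinated axons, had 5.28, 5.36, 4.90, 5.06 and 5.15 in S166A mice, against 5.65, 5.89, 6.09, 6.14 and 5.85 in NEMO FL mice, and fell by 0.78 on the log2 scale (SE 0.13, limma adjusted p = 0.0295). No other of the 18 measured genes of enteric neurons, glia and myelin had an unadjusted p under 0.05. Its call was the least stable, since it was lost without any of S166A mice 94, 33, 27 and 56 or NEMO FL mice 22, 28, 29 and 55 (adjusted p from 0.056 to 0.133). The call was also lost with all 3 groups in 1 fit, with or without a sex term.

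Calls of the other genes depended on single mice to different degrees. Ces1f passed in all 20 alternative fits and Ikbkg in all 19 that included it, with adjusted p-values up to 0.0137 and 0.0174. Ikbkg was not among the probe sets above the median level, to which the remaining fit was limited. Of the 19 fits that included it, Iigp1 missed the threshold only with a variance trend and robust estimation (0.0532). Tgtp2 was lost without S166A mouse 94 (0.0604) or 56 (0.0561) and without NEMO FL mouse 22 (0.0521), 29 (0.0734) or 55 (0.0673), and Gbp4 without any of the same 5 mice or NEMO FL mouse 28 (0.0662 to 0.12). Mptx2 was lost without each of those 5 mice in turn (0.0605 to 0.0956). Aadac, Hao2, Mptx1 and Far2 kept their call when any 1 mouse was left out. All 4 lost it with a sex term (adjusted p = 0.111 for Aadac, 0.0542 for Hao2, 0.436 for Mptx1 and 0.139 for Far2) and without S166A mice 94 and 95 (0.0867, 0.0718, 0.0718 and 0.0686 in the same order). With all 3 groups fitted together and no sex term, Aadac (0.1697), Hao2 (0.0665) and Mptx1 (0.417) also missed it. In each of these fits the direction was as reported.

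A few genes outside these families stood apart without passing the test. BC051142, whose function is not known, had 7.12, 6.66, 6.86, 7.00 and 6.94 in S166A mice, against 6.63, 5.55, 5.99, 4.96 and 5.84 in NEMO FL mice (log2 difference 1.12, limma adjusted p = 0.0952). It passed when NEMO FL mouse 18, its highest control, was left out (0.00476), and not when any other single mouse was. Leaving out the highest control widens the difference by construction. BC051142 also passed with all 3 groups in 1 fit (0.0415). Capsl, which encodes a calcium-binding protein, averaged 5.61 ± 0.24 in S166A mice and 6.49 ± 0.39 in NEMO FL mice (adjusted p = 0.086). Capsl passed with all 3 groups in 1 fit (0.0415) and without NEMO FL mouse 29, its lowest control (0.042). Pck1, the rate-limiting enzyme of gluconeogenesis, averaged 8.30 ± 0.29 in S166A mice and 9.09 ± 0.30 in NEMO FL mice (adjusted p = 0.114). Pck1 passed without NEMO FL mouse 18 (0.0208). Pck1 is also made by fat cells, whose markers Adipoq (log2 difference -0.61, 95% interval -1.60 to 0.37) and Car3 (-0.56, -1.89 to 0.77) varied widely in both groups. The part of fat tissue in the level of Pck1 was not tested.

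Lymphocyte genes lay mostly above control levels, by small amounts. Of 24 genes of cytotoxic T and NK cells 6 were higher and none lower at an unadjusted p under 0.05 (5.09% and 5.38% of all genes), and 23 of the 24 log2 differences were above 0. The granzyme gene Gzma (0.49), the T cell receptor components Cd3e (0.52) and Cd3g (0.49) and the death ligand gene Fasl (0.46) had the largest. With all 3 groups and a sex term in the fit, the difference of Gzma turned to -0.16. Of 15 helper and regulatory T cell genes 6 were higher and all 15 differences were above 0, and Il2rb, a receptor chain for interleukins, did not overlap (6.01 ± 0.25 in S166A mice and 5.33 ± 0.24 in NEMO FL mice, limma adjusted p = 0.126). Icos (0.57) and Ltb (0.50) followed.

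Genes of B cells and of plasma cells were counted together, and their differences lay in both directions. Of 18 genes 8 were higher and 2 lower at an unadjusted p under 0.05 (5.09% and 5.38% of all genes). Pax5, the transcription factor that defines B cells, had 6.44, 6.27, 6.03, 6.89 and 6.06 in S166A mice, against 5.78, 5.61, 5.81, 4.59 and 5.53 in NEMO FL mice, with no overlap (log2 difference 0.87, limma adjusted p = 0.249). Bank1 (0.76) and Cd79a (0.75), components of B cell receptor signalling, were higher too. NEMO FL mouse 29 was the lowest control in all of these, and without it the differences were 0.65, 0.49 and 0.42.

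Jchain, which joins secreted IgA in plasma cells, had 10.32, 8.73, 10.67, 10.08 and 9.63 in S166A mice, against 10.80, 10.69, 10.78, 10.58 and 10.30 in NEMO FL mice. The log2 difference of -0.74 (limma adjusted p = 0.414) became -0.45 without mouse 95. NEMO IEC-KO mice had higher levels of Jchain than both groups, from 11.47 to 12.11.

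Of 18 macrophage and monocyte genes 1 was higher and 1 lower at an unadjusted p under 0.05 (5.09% and 5.38% of all genes), the lower being Mertk (-0.51), a receptor for dying cells. Of 12 dendritic cell genes 3 were higher and none lower, led by Ccl22 (0.65). Of 16 neutrophil genes 3 were higher, the lectin receptors Clec4d (0.61) and Clec4e (0.60) and the growth factor receptor Csf3r (0.46), and none was lower. The neutrophil average was 0.35, 0.31, 0.21, -0.06 and -0.01 in S166A mice, against 0.14, 0.07, 0.04, -0.09 and -0.16 in NEMO FL mice, and 1.24 to 3.24 in NEMO IEC-KO mice. Among mast cell and eosinophil genes 5 of 15 were higher, with the tryptases Tpsb2 (0.38) and Tpsab1 (0.38), while Kit was at -0.40.

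The classical inflammatory mediators did not pass the test. Their intervals come from the fit of the 10 arrays without a term for sex, which nearly coincided with genotype. Tnf had 5.27, 4.28, 5.37, 4.84 and 4.47 in S166A mice, against 4.80, 4.44, 4.78, 4.51 and 4.11 in NEMO FL mice (log2 difference 0.32, 95% interval -0.11 to 0.74). Il1b had 3.97, 3.89, 4.97, 4.87 and 4.34 in S166A mice, against 4.83, 4.51, 4.68, 3.77 and 4.64 in NEMO FL mice (-0.08, -0.56 to 0.40). The groups overlapped throughout in both genes. Ccl5 was at 0.37 (-0.19 to 0.93) and Cxcl1 at 0.07 (-0.22 to 0.37). In the fit with a sex term Cxcl1 was at -0.41, outside that interval. The log2 level of Il1b was 7.69 to 11.44 in NEMO IEC-KO mice, and that of Tnf 5.88 to 8.50, above every S166A mouse.

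Of 36 measured cytokine and chemokine genes 3 were higher and 2 lower at an unadjusted p under 0.05, against 5.09% and 5.38% of all genes. Ccl8, a monocyte-attracting chemokine, had the largest difference (5.83 ± 0.77 in S166A mice and 4.64 ± 0.64 in NEMO FL mice, limma adjusted p = 0.313). Il18, an epithelial cytokine that promotes interferon gamma release, lay on the other side (9.92 ± 0.26 in S166A mice and 10.34 ± 0.27 in NEMO FL mice, log2 difference -0.41).

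The cell death and NF-kB lists held few differences. Of 24 measured cell death genes 4 were higher and none lower at an unadjusted p under 0.05 (5.09% and 5.38% of all genes), among them Ripk3 (0.52), the necroptosis kinase, and Tnfrsf1a (0.36), the TNF receptor. No probe set carried the symbol Ripk1. Of 24 NF-kB genes 2 were higher and 1, Ikbkg itself, was lower, and the target gene Nfkbiz was at 0.51 (8.11 ± 0.32 in S166A mice and 7.61 ± 0.11 in NEMO FL mice).

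Of 20 fibroblast and matrix genes 6 passed the unadjusted threshold on the lower side and 1 on the higher side (5.38% and 5.09% of all genes), with the proteoglycan gene Lum at -0.78 and Fap, a protease of activated fibroblasts, at -0.63. The list averages of the fibroblast genes were -0.24, -0.29, -0.39, 0.11 and 0.04 in S166A mice, lowest in mice 94, 95 and 33, against -0.14, -0.01, 0.11, 0.04 and -0.01 in NEMO FL mice. None of 14 smooth muscle genes passed in either direction, though 13 of the 14 differences were below 0, and their averages were -0.39, -0.15, -0.51, 0.20 and 0.08 in S166A mice, against -0.29, -0.06, 0.05, 0.15 and 0.15 in NEMO FL mice. The amount of muscle and stroma in each piece of colon was not measured, and its part in these values was not tested. Among 14 endothelial genes 2 were higher and 1 lower, led by Selp (0.50).

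Of 17 circadian clock genes 1 was higher and 3 lower at an unadjusted p under 0.05 (5.09% and 5.38% of all genes). Nfil3, a clock output repressor, did not overlap (6.04 ± 0.14 in S166A mice and 5.66 ± 0.13 in NEMO FL mice), and the activators Arntl (-0.40) and Npas2 (-0.36) were on the opposite side. None of 13 unfolded protein response genes passed at that threshold.

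**Figure D5:**
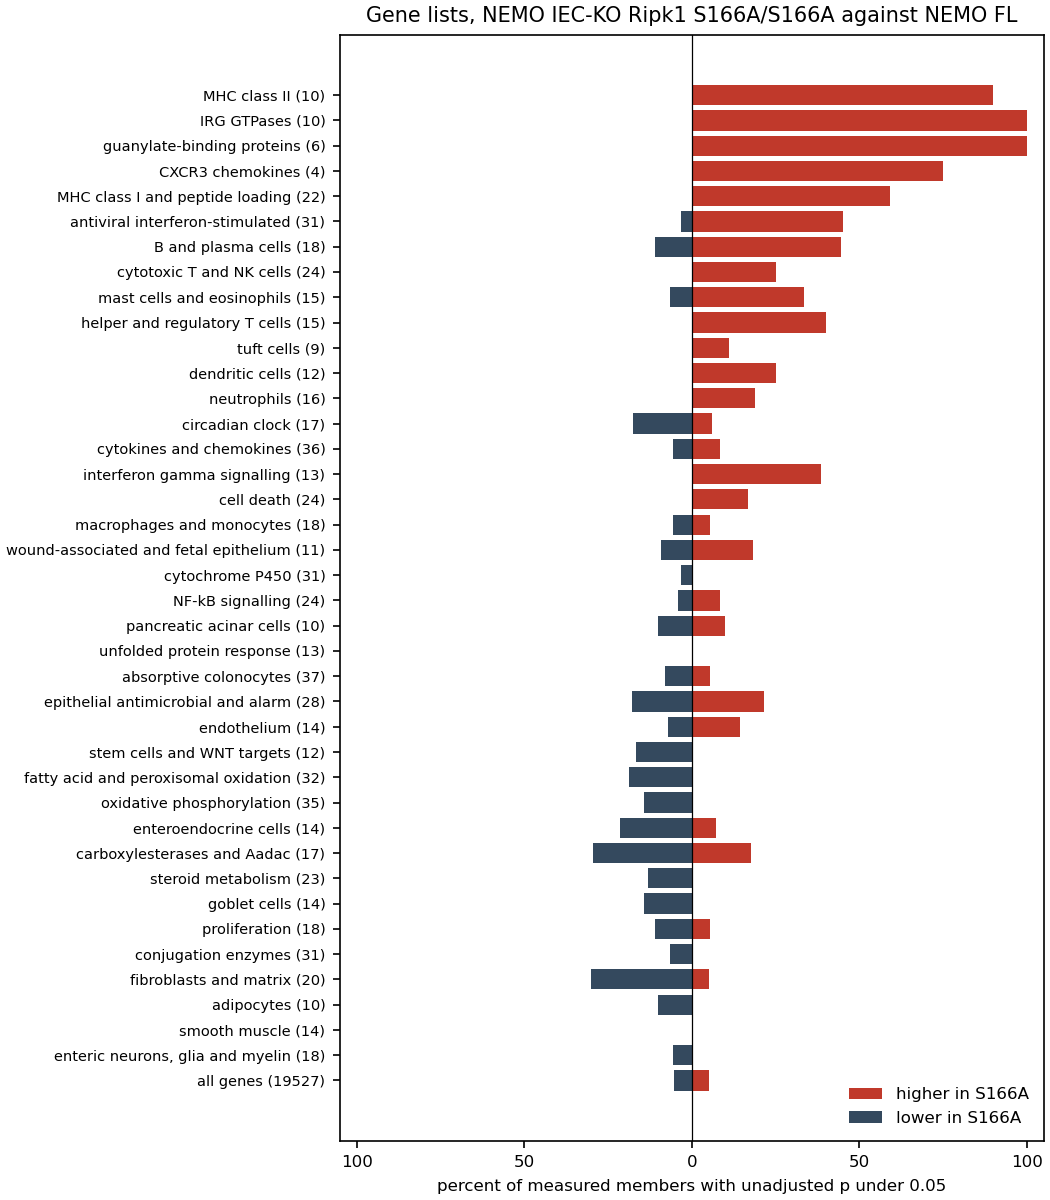
Share of the measured genes of each list with an unadjusted p under 0.05, higher (right, red) or lower (left, dark blue) in S166A against NEMO FL colon, with the number measured in brackets and lists ordered by their median log2 difference. The IRG, guanylate-binding protein and MHC class II lists reach 10 of 10, 6 of 6 and 9 of 10 on the higher side, against 5.09% for all genes at the bottom.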

How the data were processed

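Labelled DNA from 100 ng of total colon RNA per mouse was hybridised to Clariom S mouse arrays, 1 array per mouse. The authors deposited log2 signals of 22142 probe sets on 15 arrays. The base is read from the range of the values (1.69 to 13.6), and the summary and normalization are not given in the sources used here. The submitters' processing notes name Affymetrix Expression Console and Transcriptome Analysis Console without versions. No per-array counts exist, so the number of mice limits the precision, and litters are not given.

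Probe sets were named from GEO's platform annotation and GRCm38.p6 symbols (19527 with 1 symbol, 2615 with none). For the 33 symbols with 2 or more probe sets, lists took the one with the larger mean signal, and counts over all genes took each. Groups were taken from sample titles. The test was limma 3.58.1 (R 4.3.3; a linear model with empirical Bayes variances, 10 arrays, no covariate). Benjamini-Hochberg correction took in the whole table of 22142 probe sets. The fit was tested on simulated data. Intervals are 95% limits from the same fit. P-values set the difference between the groups against the variance between these mice within groups, moderated over all probe sets. The 40 gene lists (729 of 813 genes measured) and the genes described were chosen with earlier results of these data known, so lists are described by counts and medians and not tested. Genes named are those called, the 10 largest non-overlapping differences each way, the 4 largest of each list, 4 inflammatory mediators and all members of 5 lists. Sex was called from Y-linked genes. All deposited sample columns were mapped.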

Additional observations from a re-analysis of the deposited data

Results flagged for a closer look

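Each of the 111 genes described was checked in both groups of 5 for a mouse that stood apart from its group, that is, whose gap to the nearest other mouse took up more than 0.71 of the range of the group. Chance alone flags about 1 in 20 groups, and 11 of 222 were flagged. In S166A mice, Cxcl1 was 4.98 in mouse 27, against 5.35 to 5.38 in the others, and Icos was 4.99 in mouse 56, against 5.88 to 6.07. In NEMO FL mice, mouse 29 was low for H2-Ob (6.14, against 6.93 to 7.22), Pax5 (4.59, against 5.53 to 5.81) and Bank1 (5.33, against 6.50 to 6.78). Mouse 18 was high for Gzma (4.59, against 3.70 to 3.95). Mouse 55 was low for Far2 (6.21, against 6.49 to 6.59) and high for Fap (4.93, against 4.27 to 4.40), and it was high for the Y-linked genes Uty (8.81), Kdm5d (7.32) and Eif2s3y (9.47), which were 2.64 to 3.52 in the other 4 mice.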

How the results depend on the processing

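The number of genes at an adjusted p under 0.05 was 11 (3 higher and 8 lower). It was 19 (15 and 4) with all 3 groups in 1 fit, 7 (0 and 7) with a variance trend and robust estimation, 24 (13 and 11) with array weights, 11 (3 and 8) after median centring and after quantile normalization, 13 (5 and 8) without the dimmest 25 percent of probe sets and with named probe sets only, 7 (2 and 5) without the probe sets below the median level, 4 (2 and 2) with all 3 groups and a sex term, and 3 (1 and 2) without S166A mice 94 and 95. It was 7 (1 and 6) at an adjusted p under 0.01, 29 (17 and 12) under 0.1, and 190 (117 and 73) at a fold over 1.5 with an unadjusted p under 0.05. Leaving out 1 mouse at a time gave 7 to 35 genes, 1 to 24 of them higher and 6 to 11 lower. In the limma fit with trend and robust estimation, which called 0 genes higher, 924 were higher at an unadjusted p under 0.05. The cause of these shifts was not tested.

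Of 2165 recomputed differences of single genes, 11 changed sign. With a sex term these were Cxcl11 (-0.0522), Cxcl1 (-0.41), Gzma (-0.16), Uty (-0.33), Kdm5d (-0.0502) and Eif2s3y (-0.72). Cxcl1 was -0.0241 without NEMO FL mouse 29 (0.155 at most, without mouse 55), and Il1b was 0.24 without S166A mice 94 and 95, 0.03 without mouse 94, 0.0509 without mouse 95, 0.01 without NEMO FL mouse 18 and -0.258 at the lowest, without NEMO FL mouse 29. The median of the IRG genes stayed within 1.00 and 1.54, that of the guanylate-binding proteins within 0.63 and 1.06 and that of MHC class II within 1.23 and 1.697. Medians of the neutrophil and cytotoxic cell lists could not be given without the dimmer probe sets, since no member was left. The paper states that littermates were used, but the litter of each mouse is not given, so no paired analysis was possible. The study's sexes nearly coincide with genotype, 1 male control is left to compare, and 5 mice a group limit what can be called.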
